A study of Mus musculus with 18 samples.

Results

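The TGF-beta and BMP pathway genes described here are 38 mouse genes that encode ligands, receptors, Smad proteins, antagonists and Id targets of these pathways. They were found as the probe sets of an Affymetrix mouse 430 2.0 array whose annotation gives exactly 1 of the member symbols, or an older alias of it. All 38 were on the array, with 91 of its 45101 probe sets, among 18193 genes that could be named in the same way. Each gene was read from its brightest probe set, by the mean of log2 values across the 18 arrays. The arrays came from outbred CD-1 mice with no transgene or knockout named. The adult samples carry a treatment text on surgical removal of part of the liver, while their titles and source call them normal liver at baseline, and they are treated here as normal. Liver was microdissected from embryos on each day from 10.5 to 14.5 days post conception (dpc) and at 16.5 dpc, and taken from 10-week-old normal females, with 2 arrays a group and 14 in all. The embryo minus its liver, or the rest of the embryo, was hybridised at the first 3 of these stages and at 14.5 dpc, with 1 array a stage and 4 in all. The embryonic samples pooled 5 or more embryos each, so the spread between animals is not seen. Replicate arrays are called biological with no word on litters, p-values refer to the spread among these samples only.

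TGF-beta, activin and BMP ligands are secreted dimers that bring together type II and type I serine/threonine kinase receptors. The type I receptor phosphorylates receptor Smads, which join the common Smad, Smad4, and enter the nucleus. Smad2 and Smad3 carry TGF-beta and activin signals, and Smad1 and Smad5 carry BMP signals, of which the Id genes are well-known targets. Inhibitory Smads, secreted antagonists and nuclear co-repressors dampen the signal. In the embryo, BMPs from the septum transversum and the cardiac mesoderm take part in the induction of liver from foregut endoderm, and in the adult liver TGF-beta is best known for its action on stellate cells and on hepatocyte growth.

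Values are the deposited probe set intensities, on a linear scale. Differences are in log2 after values under 24.8, the 20th percentile of all values, were raised to that floor, and folds are the same differences as ratios of geometric means. A gene was called when its Benjamini-Hochberg adjusted p from limma was under 0.05 and it differed by at least 1 log2. Intensities of different probe sets are on scales of their own, so levels are compared between arrays and never between genes. The liver arrays had median intensities of 69.7 to 79.5. The 10.5 dpc replicate 1 array stood apart in RNA quality, with a Gapdh 3′ to 5′ probe ratio of 2.82 against 0.744 to 0.886 on the other liver arrays. Calls lost without that array are named with their values.

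Between 10.5 and 16.5 dpc most of the pathway genes that were called fell in the liver, across ligands, receptors, Smads and Id targets. Of 36 genes with enough signal to be tested, 16 fell and 1, Tgfb1, rose, which is 47.2% called against 17.4% of all 14125 genes tested (6.98% lower and 10.4% higher). The median difference of the tested genes was -0.83 log2, against 0.05 over all genes tested, and 29 of the 36 differences were below 0. Nog and Bmpr1b did not pass the filter on low values. Bmp4 and Id4 passed it only through their 10.5 dpc arrays, where they were highest, so their calls add no support to this count. Among the embryonic liver stages, 24 of the 38 genes had their highest mean level at 10.5 dpc, and 20 had their lowest at 16.5 dpc. The same shares over all genes were not worked out, so these counts only describe the members. They take in Nog and Bmpr1b, and Inhbe, which lay at the floor on nearly all of these arrays. Without the 10.5 dpc replicate 1 array, 13 genes fell and 1, Inhbb, rose, and Bmp4 and Id4 no longer passed the filter. In these bulk samples, fewer cells of a type and less RNA per cell cannot be told apart.

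**Figure D1:**
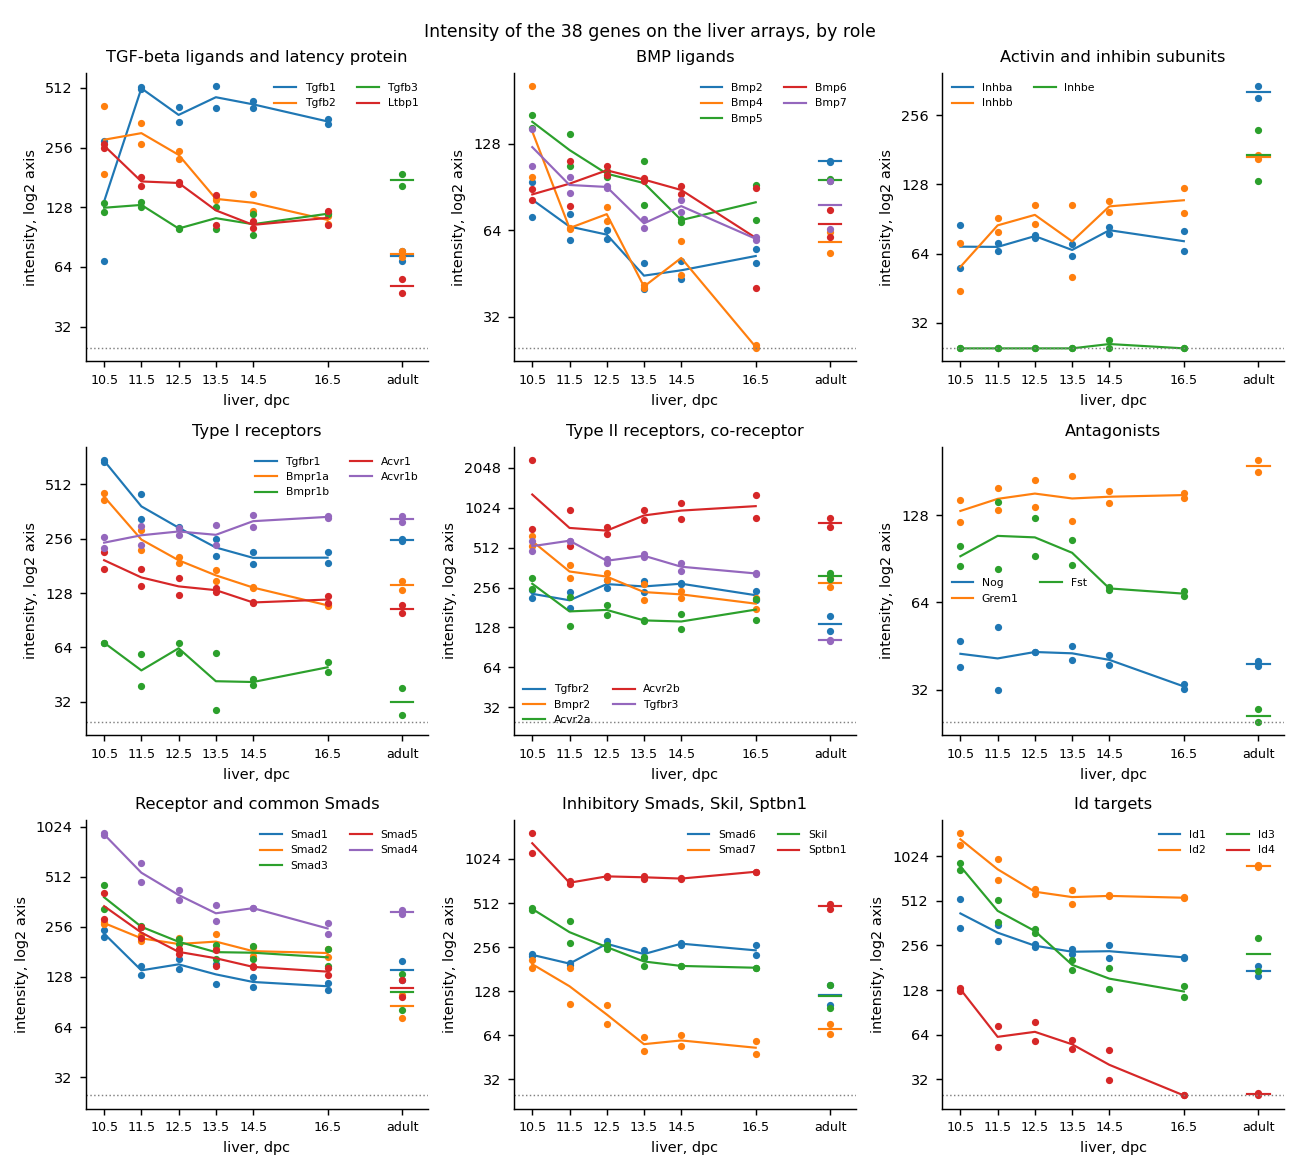
Intensity (log2 axis) of the pathway genes in liver by stage, in 1 panel a role, where points are single arrays, lines join the geometric means of the 2 arrays of a stage, adult bars are means and the dotted line is the floor of 24.8. Id3, Id4, Smad4 and Bmpr1a run downward from 10.5 to 16.5 dpc, and Inhba and Inhbe stand above all embryonic arrays in the adult.

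Without the 10.5 and 12.5 dpc arrays the change was smaller. From 11.5 to 16.5 dpc, 5 of 34 tested genes fell, namely Tgfb2, Smad4, Smad7, Bmpr1a and Id3, and none rose, which is 14.7% lower against 2.24% of 13753 genes (6.64% of all genes were higher and 8.88% called). Smad7 passed the filter there only through its 11.5 dpc arrays, where it was highest, so its call adds no support. At an unadjusted p under 0.05 in limma with the same size of difference, the counts were the same, 5 lower and 0 higher. The median difference was -0.58 log2, against 0.09 over all genes. Bmp4, Id4, Nog and Bmpr1b were not tested there because too few of the remaining arrays passed the filter. In the fit of all 14 liver arrays, which tests Bmp4 and Id4, 7 genes fell from 11.5 to 16.5 dpc, those 5 and these 2. The first step, from 10.5 to 11.5 dpc, held 3 calls of 36, Bmp4 and Id4 lower and Tgfb1 higher, against 5.66% of all genes (2.69% lower and 2.97% higher). Without the 10.5 dpc replicate 1 array this step held 0 calls, since Tgfb1 came to 0.89 log2 and Bmp4 and Id4 were not tested. Without the 11.5 dpc replicate 1 array it held 0 as well. These comparisons share arrays, and the counts are given side by side only.

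Transcripts of other tissues moved with the same stages. The summed intensity of 16 heart muscle markers was 15603 to 25111 at 10.5 dpc, 960 to 965 at 11.5, 4118 to 11855 at 12.5 dpc and 1227 to 1860 from 13.5 to 16.5 dpc. Of the 16, 14 fell from 10.5 to 16.5 dpc, led by the atrial light chain Myl7 at -6.33 and the myosin heavy chain Myh7 at -6.06 log2. Myh7, Nppa, Tnni3 and Ryr2 lay at the floor at 16.5 dpc and none did at 10.5 or 12.5 dpc. The stellate and mesenchymal markers summed to 19530 to 22192 at 10.5 dpc, 10265 to 11453 at 11.5 dpc and 7095 to 7204 at 16.5 dpc. Of 16 such markers tested, 12 fell and 1 rose from 10.5 dpc, led by Mdk at -4.43 and Pdgfra at -3.10, and 6 of 15 fell from 11.5 dpc. Endothelial sums stayed between 1669 and 2048 on embryonic liver arrays, with 3 of 14 markers higher and 2 lower. Of 10 neural markers tested, 4 fell and 1 rose from 10.5 dpc. Hepatocyte sums were 12192 to 12238 at 10.5 dpc and 43611 to 43918 at 16.5 dpc, and 10 of 11 tested hepatocyte markers, 8 of 9 red cell markers and 9 of 12 macrophage markers rose. The part of these shifts in the fall of the pathway genes was not tested.

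**Figure D2:**
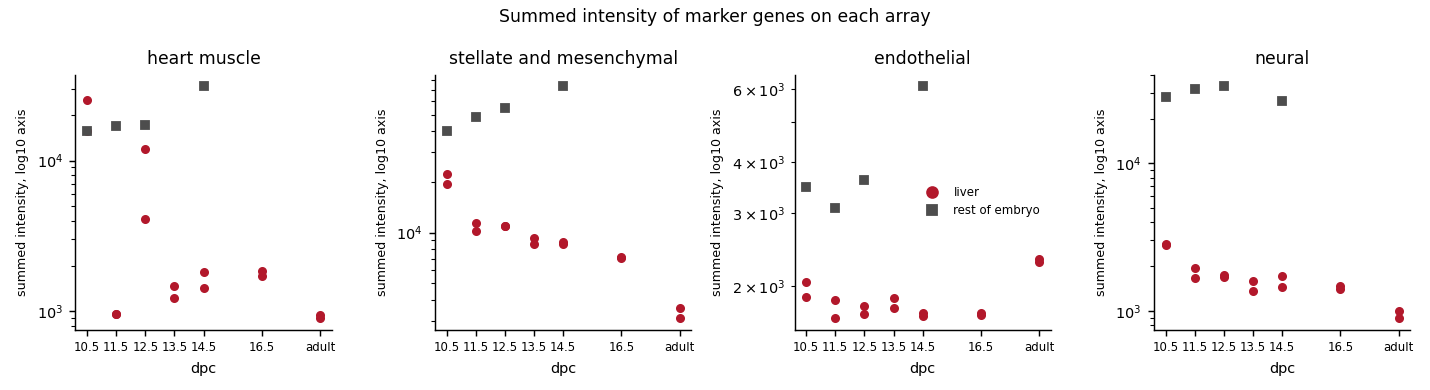
Summed intensity of 4 marker lists (log10 axis) by stage, where red circles are liver arrays and grey squares are arrays of embryo without liver. Heart muscle transcripts in liver are high at 10.5 dpc (15603 to 25111) and at 12.5 dpc, and at 960 to 965 at 11.5 dpc, while endothelial sums stay within 1669 to 2048 on embryonic liver arrays.

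Tgfb1, Tgfb2 and Tgfb3, which encode the TGF-beta ligands, each followed a course of its own. Tgfb1 read 68.4 and 275 on the 10.5 dpc arrays, 504 and 516 at 11.5, 409 and 343 at 12.5, 522 and 405 at 13.5, 442 and 406 at 14.5, and 357 and 338 at 16.5 dpc. The 10.5 dpc arrays were the 2 lowest of the embryonic liver, and replicate 1, the array with the high Gapdh ratio, was the lower. Its rise from 10.5 to 16.5 dpc was 2.53-fold (1.34 log2, SE 0.46, limma adjusted p = 0.0447) and that from 10.5 to 11.5 dpc 3.72-fold (1.90 log2, SE 0.46, adjusted p = 0.0211). Neither rise was called without the 10.5 dpc replicate 1 array, at 0.34 log2 to 16.5 dpc and 0.89 log2 to 11.5 dpc. The call to 16.5 dpc was lost under 19 of 25 alternatives, among them no filter, median centring, quantile normalization, the replicate block and the removal of any liver array other than 10.5 dpc replicate 2. The call to 11.5 dpc was lost under 4 of 25, namely no filter and the removal of 10.5 dpc replicate 1 or of either 11.5 dpc array. From 11.5 to 16.5 dpc Tgfb1 differed by -0.56 log2 (SE 0.14, adjusted p = 0.024), short of the size needed for a call. A second Tgfb1 probe set read 0.66 log2 from 10.5 to 16.5 dpc and 0.16 log2 from 10.5 to 11.5 dpc. From 11.5 to 16.5 dpc it went the opposite way, at 0.49 log2.

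Tgfb2, a ligand with known roles in heart and mesenchyme, read 189 and 417 at 10.5 dpc, 268 and 342 at 11.5, 225 and 247 at 12.5, 143 and 139 at 13.5, 149 and 122 at 14.5, and 116 and 105 at 16.5 dpc. All arrays to 12.5 dpc lay above all later ones. It fell 2.54-fold from 10.5 dpc (-1.34 log2, SE 0.30, adjusted p = 0.00461) and 2.74-fold from 11.5 dpc (-1.45 log2, SE 0.17, adjusted p = 0.000488). The call from 10.5 dpc was lost without the 10.5 dpc replicate 2 array, at -0.77 log2. Its other 3 probe sets ran from -2.93 to -0.43 log2 from 10.5 to 16.5 dpc. From 11.5 dpc they ran from -1.74 to 0.68 log2, where 1 went the opposite way, and the mean of all probe sets was not called. Between 10.5 and 11.5 dpc they ran from -1.24 to -1.10 log2, against 0.11 log2 in the brightest. Tgfb3 stayed between 92.9 and 135.4 on every embryonic liver array, with a difference of -0.10 log2 from 10.5 to 16.5 dpc.

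Bmp4, a BMP ligand of the mesenchyme around the liver bud, fell furthest of the BMP ligands. It read 98.3 and 203 at 10.5 dpc, 64.8 and 65.3 at 11.5, 77.0 and 68.7 at 12.5, 41.2 and 40.3 at 13.5, 58.6 and 44.8 at 14.5, and 25.4 and 21.4 at 16.5 dpc. Each 10.5 dpc array was above all later embryonic arrays, and 1 of the 16.5 dpc arrays was under the floor. Only the 10.5 dpc arrays passed the filter, so the tests against 10.5 dpc depend on the high values there. The fall was 5.62-fold from 10.5 to 16.5 dpc (-2.49 log2, SE 0.28, adjusted p = 5.72e-05), of which -1.12 log2 (SE 0.28, adjusted p = 0.0253) lay between 10.5 and 11.5 dpc, a call lost without either 11.5 dpc array. Bmp7 read 144 and 107 at 10.5 dpc, 97.7 and 86.4 at 11.5, 91.3 and 89.7 at 12.5, 70.3 and 65.0 at 13.5, 74.0 and 81.4 at 14.5, and 59.1 and 60.4 at 16.5 dpc. No 10.5 dpc array overlapped the 16.5 dpc arrays, and Bmp7 fell 2.08-fold (-1.06 log2, SE 0.21, adjusted p = 0.0023), a call lost without the 10.5 dpc replicate 1 array (-0.84 log2).

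The other BMP ligands were not called between stages. Bmp2 read 94.1 and 70.9 at 10.5 dpc, 59.4 and 73.1 at 11.5, 64.1 and 59.5 at 12.5, 40.04 and 49.3 at 13.5, 43.1 and 49.9 at 14.5, and 49.4 and 54.8 at 16.5 dpc. Its 10.5 and 16.5 dpc arrays did not overlap, with a difference of -0.65 log2. Bmp5 read 161 and 145 at 10.5 dpc, 107 and 138 at 11.5, 103 and 98.2 at 12.5, 78.2 and 111 at 13.5, 70.3 and 68.5 at 14.5, and 91.9 and 69.6 at 16.5 dpc, a difference of -0.93 log2. Its highest arrays were those of 10.5 dpc. Bmp6, which in adult liver is known as the ligand that sets hepcidin levels, stayed between 77.4 and 111 on every embryonic liver array but 1 of the 16.5 dpc pair, which read 40.3.

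Of the type I receptors, which carry the signal to the Smads, the genes for the TGF-beta receptor Tgfbr1 and the BMP receptor Bmpr1a fell, while Acvr1, a receptor shared by BMPs and activins, and Acvr1b, the activin receptor, were not called. Bmpr1a read 418 and 455 at 10.5 dpc, 222 and 287 at 11.5, 202 and 187 at 12.5, 149 and 172 at 13.5, 138 and 137 at 14.5, and 108 and 110.5 at 16.5 dpc. The arrays of each stage from 10.5 to 14.5 dpc lay above those of 16.5 dpc. It fell 3.98-fold from 10.5 dpc (-1.99 log2, SE 0.15, adjusted p = 3.74e-06) and 2.31-fold from 11.5 dpc (-1.21 log2, SE 0.16, adjusted p = 0.00101). Its other 5 probe sets ran from -1.52 to -0.01 log2 from 10.5 dpc and from -0.88 to 0.48 log2 from 11.5 dpc, where 2 of them went the opposite way. The mean of all its probe sets was called in neither comparison, at -0.95 and -0.35 log2. Tgfbr1 read 697 and 681 at 10.5 dpc, 329 and 452 at 11.5, 295 and 292 at 12.5, 204 and 256 at 13.5, 216 and 185 at 14.5, and 215 and 187 at 16.5 dpc. Its steepest step was the first, and it fell 3.43-fold from 10.5 to 16.5 dpc (-1.78 log2, SE 0.17, adjusted p = 1.68e-05), with -0.94 log2 from 11.5 dpc, not called. Another Tgfbr1 probe set read the opposite way, at 1.32 log2 from 10.5 to 16.5 dpc, on intensities between 23.0 and 103.

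Acvr1 read 174 and 216 at 10.5 dpc, 139 and 175 at 11.5, 155 and 125 at 12.5, 129 and 136 at 13.5, 114 and 113 at 14.5, and 123 and 113 at 16.5 dpc, a difference of -0.72 log2. The 16.5 dpc arrays lay below both 10.5 dpc arrays without a call. Acvr1b stayed between 226 and 343 on all liver arrays, with 0.47 log2 from 10.5 to 16.5 dpc. Bmpr1b, the other BMP type I receptor, read 67.8 and 68.2 at 10.5 dpc, 39.0 and 58.6 at 11.5, 67.6 and 59.4 at 12.5, 28.9 and 60.0 at 13.5, 39.7 and 42.8 at 14.5, and 46.6 and 53.1 at 16.5 dpc. No liver array of Bmpr1b passed the filter of 78.0, so it was not tested in liver.

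Among the type II receptors, which bind ligand first, only the BMP receptor gene Bmpr2 was called in the full series. It read 524 and 625 at 10.5 dpc, 302 and 378 at 11.5, 291 and 329 at 12.5, 205 and 273 at 13.5, 241 and 215 at 14.5, and 212 and 177 at 16.5 dpc. Both 10.5 dpc arrays stood above every later embryonic array. It fell 2.96-fold (-1.57 log2, SE 0.18, adjusted p = 7.03e-05) from 10.5 dpc, with -0.81 log2 from 11.5 dpc, not called. Its other probe sets read -0.55 and -0.50 log2 from 10.5 to 16.5 dpc, and the mean of all, at -0.87 log2, was not called. Tgfbr2, the TGF-beta type II receptor, stayed between 179 and 292 on the embryonic liver arrays, with -0.04 log2 from 10.5 to 16.5 dpc. Acvr2a, an activin and BMP receptor, read 301 and 248 at 10.5 dpc, 131 and 218 at 11.5, 188 and 159.8 at 12.5, 146 and 143 at 13.5, 162 and 124 at 14.5, and 145 and 210.3 at 16.5 dpc. The 2 arrays of 10.5 dpc were the highest, and the difference to 16.5 dpc of -0.65 log2 was not called. Acvr2b spread widely between replicates, as in 2349 and 705 at 10.5 dpc, and differed by -0.29 log2. Tgfbr3, the betaglycan co-receptor that presents TGF-beta2 to its receptors, read 480.2 and 573 at 10.5 dpc, 577 on each array at 11.5, 393 and 423 at 12.5, 432 and 457 at 13.5, 393 and 344 at 14.5, and 328 and 326 at 16.5 dpc. Its 16.5 dpc arrays were the lowest of the embryonic series, at -0.68 log2 from 10.5 dpc and -0.82 log2 from 11.5 dpc, both short of a call.

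**Figure D3:**
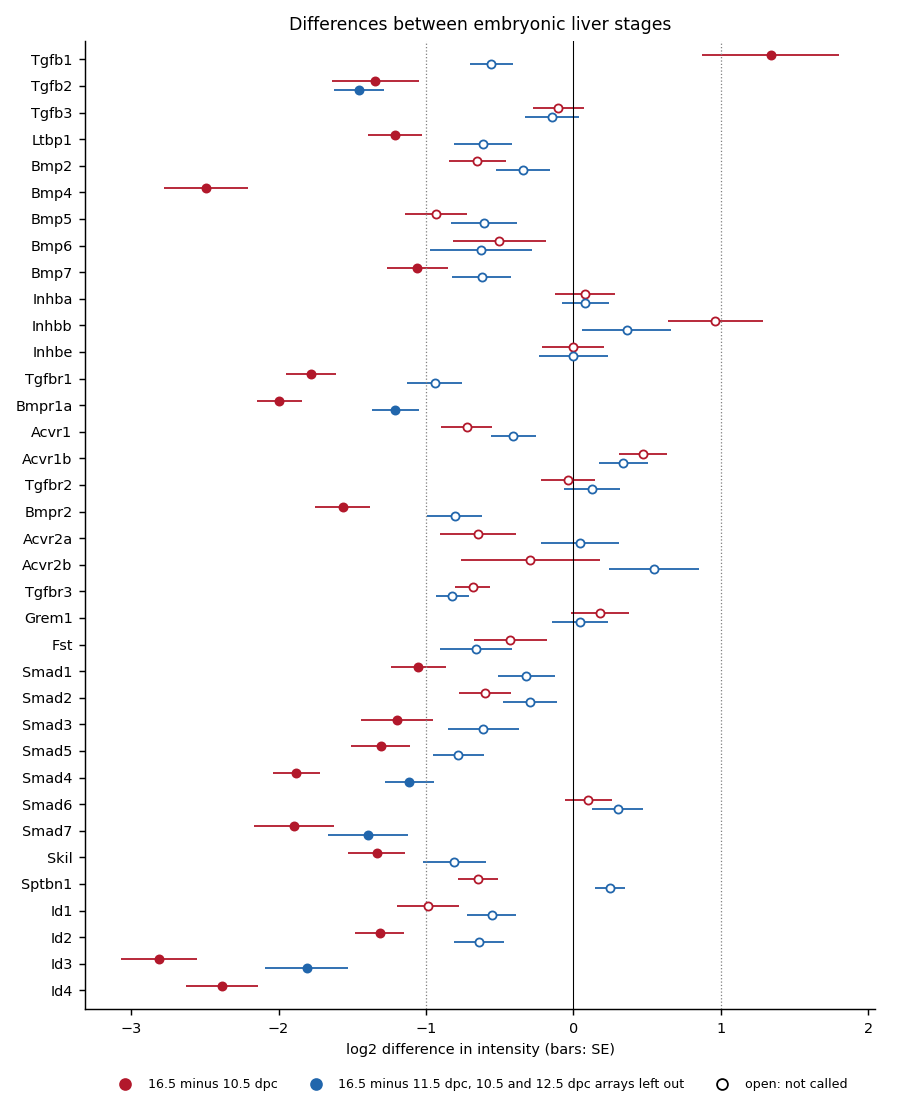
Difference in log2 for each tested pathway gene in liver, 16.5 minus 10.5 dpc in red and 16.5 minus 11.5 dpc without the 10.5 and 12.5 dpc arrays in blue, with SE bars, filled points for called genes and dotted lines at 1 log2 either way. Id3 lies furthest to the left in red (-2.81) and in blue (-1.81), and Tgfb1 is the only filled red point to the right.

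Smad4, the common Smad, fell from both early stages. It read 935 and 909 at 10.5 dpc, 475 and 619 at 11.5, 425 and 374 at 12.5, 278 and 345 at 13.5, 332 on each array at 14.5, and 272 and 231 at 16.5 dpc. The 16.5 dpc arrays were the lowest of the embryonic arrays. Smad4 fell 3.68-fold from 10.5 dpc (-1.88 log2, SE 0.16, adjusted p = 7.21e-06) and 2.16-fold from 11.5 dpc (-1.11 log2, SE 0.17, adjusted p = 0.00187). The call from 11.5 dpc was lost without the 11.5 or the 16.5 dpc replicate 2 array. Its other 2 probe sets read -1.96 and -1.51 log2 from 10.5 to 16.5 dpc.

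Of the receptor Smads, Smad1, Smad3 and Smad5 fell from 10.5 dpc and Smad2 was not called. Smad5 read 284 and 409.5 at 10.5 dpc, 221 and 254 at 11.5, 188 and 175 at 12.5, 148 and 186 at 13.5, 148 and 146 at 14.5, and 145 and 131 at 16.5 dpc, with no overlap between the first and the last stage. It fell 2.48-fold (-1.31 log2, SE 0.20, adjusted p = 0.00043). Its other probe sets read -0.54 and -0.07 log2, and the mean of all, at -0.64 log2, was not called. Smad1, the other BMP-responsive Smad of the set, read 223 and 244 at 10.5 dpc, 132 and 149 at 11.5, 163 and 142 at 12.5, 116 and 152 at 13.5, 128 and 111 at 14.5, and 107 and 118 at 16.5 dpc. The 10.5 dpc arrays stood above all later embryonic arrays, and the fall was 2.07-fold (-1.05 log2, SE 0.19, adjusted p = 0.00121), a call lost without the 10.5 dpc replicate 2 array or the 16.5 dpc replicate 1 array.

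Smad3, which carries TGF-beta and activin signals, read 455 and 328 at 10.5 dpc, 258 and 255 at 11.5, 202 and 215 at 12.5, 198 and 164 at 13.5, 196 and 164 at 14.5, and 188 and 150.1 at 16.5 dpc. Each step of the stage means was downward or level, and it fell 2.30-fold (-1.20 log2, SE 0.24, adjusted p = 0.00289). The call was lost without the 10.5 dpc replicate 1 array (-0.96 log2), and 1 of its other 2 probe sets read 0.20 log2. Smad2 read 272 and 268 at 10.5 dpc, 228 and 209.6 at 11.5, 187 and 218 at 12.5, 232 and 188 at 13.5, 194 and 172 at 14.5, and 189 and 168 at 16.5 dpc. Its 10.5 dpc arrays were the highest, and the difference of -0.60 log2 to 16.5 dpc was not called. From 11.5 dpc, no receptor Smad was called, with differences for Smad3 of -0.61 and for Smad5 of -0.78 log2.

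The inhibitory Smads parted. Smad7, which blocks both TGF-beta and BMP receptors and is itself induced by their signals, read 183 and 209 at 10.5 dpc, 104 and 183 at 11.5, 103 and 76.0 at 12.5, 49.96 and 61.9 at 13.5, 54.1 and 64.2 at 14.5, and 47.5 and 58.1 at 16.5 dpc. Every array to 12.5 dpc was above every later embryonic array. It fell 3.72-fold from 10.5 dpc (-1.90 log2, SE 0.27, adjusted p = 0.000268) and 2.63-fold from 11.5 dpc (-1.40 log2, SE 0.27, adjusted p = 0.00704). In the comparison from 11.5 dpc, Smad7 was tested only because its 11.5 dpc arrays passed the filter. Its other probe set read -1.06 and -0.56 log2 in the same comparisons. Smad6, which acts mainly on BMP signals, read 231 and 222 at 10.5 dpc, 194 and 200.5 at 11.5, 280.2 and 259.5 at 12.5, 214 and 245 at 13.5, 274 and 266 at 14.5, and 263 and 225 at 16.5 dpc. The first and last stages overlapped, with 0.10 log2 between them.

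The Id genes encode inhibitors of basic helix-loop-helix factors, and 3 of the 4 fell from 10.5 to 16.5 dpc, with a median of -1.85 log2 over the group. Id3 read 834 and 921 at 10.5 dpc, 369 and 521 at 11.5, 309 and 332 at 12.5, 176 and 204 at 13.5, 180.3 and 129 at 14.5, and 114 and 137 at 16.5 dpc. The first 3 stages did not overlap each other or the later arrays. It fell 7.01-fold from 10.5 dpc (-2.81 log2, SE 0.26, adjusted p = 1.32e-05) and 3.51-fold from 11.5 dpc (-1.81 log2, SE 0.28, adjusted p = 0.00234). Id3 has a single probe set, and both calls held under every alternative run.

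Id4 read 133 and 127 at 10.5 dpc, 52.4 and 72.8 at 11.5, 77.3 and 57.7 at 12.5, 58.9 and 51.4 at 13.5, 50.3 and 31.7 at 14.5, and 20.4 and 19.9 at 16.5 dpc. Both 16.5 dpc arrays were under the floor, so its fall from 10.5 dpc was at least 5.22-fold (-2.38 log2, SE 0.25, adjusted p = 2.8e-05). Like Bmp4, Id4 was tested in liver only because its 10.5 dpc arrays passed the filter. From 10.5 to 11.5 dpc it fell 2.10-fold (-1.07 log2, SE 0.25, adjusted p = 0.0156), with no overlap of the arrays, a call lost without the 11.5 dpc replicate 1 array (-0.83 log2). Id2 read 1219.6 and 1464 at 10.5 dpc, 709.7 and 988 at 11.5, 613 and 569 at 12.5, 485 and 609 at 13.5, 549 and 558 at 14.5, and 532 and 543 at 16.5 dpc. It stayed between 485 and 613 from 12.5 dpc on, and it fell 2.48-fold from 10.5 to 16.5 dpc (-1.31 log2, SE 0.17, adjusted p = 0.000122). Id1 read 337 and 527 at 10.5 dpc, 276 and 354 at 11.5, 249 and 261 at 12.5, 241 and 224 at 13.5, 259.7 and 211 at 14.5, and 211 and 215 at 16.5 dpc. The 16.5 dpc arrays were below both 10.5 dpc arrays, and its difference of -0.99 log2 (SE 0.21, adjusted p = 0.00364) stopped just short of the size needed for a call, as the member nearest to it.

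The 250 bases before the start site are shown for Id2, Id3, Id4 and Bmp4, 4 genes that fell from 10.5 dpc under all alternatives in which they were tested. For Bmp4 and Id4 the alternatives without a 10.5 dpc array were not among these, since only their 10.5 dpc arrays passed the filter. Smad4 and Smad7 also held under all alternatives, and no promoter is shown for them. They come from RefSeq on GRCm38.p6 and are written 5′ to 3′ on the gene's strand, at chr12:25096093-25096342 for Id2 (minus strand), chr4:136143572-136143821 for Id3 (plus strand), chr13:48260866-48261115 for Id4 (plus strand) and chr14:46390670-46390919 for Bmp4 (minus strand). Capitals mark GGCGCC, a palindrome known as a GC-rich element of BMP Smads, and GTCT or its reverse complement AGAC, the core of the Smad-binding element.
Id2: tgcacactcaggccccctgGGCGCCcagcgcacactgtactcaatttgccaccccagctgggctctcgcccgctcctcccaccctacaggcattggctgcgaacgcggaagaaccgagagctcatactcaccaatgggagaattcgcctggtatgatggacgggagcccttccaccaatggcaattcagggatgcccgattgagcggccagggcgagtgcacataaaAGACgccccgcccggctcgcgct
Id3: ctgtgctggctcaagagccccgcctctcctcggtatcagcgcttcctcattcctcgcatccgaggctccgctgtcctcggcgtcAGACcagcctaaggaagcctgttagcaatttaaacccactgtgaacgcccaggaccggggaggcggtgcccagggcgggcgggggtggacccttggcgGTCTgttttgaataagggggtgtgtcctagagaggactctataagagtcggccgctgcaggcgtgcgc
Id4: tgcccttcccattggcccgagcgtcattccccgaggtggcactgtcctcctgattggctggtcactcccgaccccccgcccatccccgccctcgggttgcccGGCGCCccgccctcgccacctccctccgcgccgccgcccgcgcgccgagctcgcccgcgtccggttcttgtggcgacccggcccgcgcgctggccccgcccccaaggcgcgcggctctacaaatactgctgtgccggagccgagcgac
Bmp4: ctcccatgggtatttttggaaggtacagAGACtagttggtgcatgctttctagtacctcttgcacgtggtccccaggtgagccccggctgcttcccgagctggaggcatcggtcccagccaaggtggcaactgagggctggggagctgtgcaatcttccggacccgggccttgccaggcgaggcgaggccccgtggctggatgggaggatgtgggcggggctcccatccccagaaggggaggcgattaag
The stretch of Id2 held 1 GGCGCC and 1 GTCT or AGAC, that of Id3 0 and 2, that of Id4 1 and 0, and that of Bmp4 0 and 1. RefSeq promoters were matched for 27 of the 38 genes, with 34 promoters among 32851. GGCGCC lay in 20.6% of those 34, those of Bmpr1a, Bmpr2, Grem1, Id2, Id4, Smad5 and Tgfbr1, and in 9.59% of all promoters of this length. GTCT on either strand lay in 85.3% of them and in 82.9% of all, and the 8-base GTCTAGAC in none of them and in 0.167% of all. A match describes the letters and is not a bound site.

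The latency protein, co-repressor and adaptor genes had their highest levels at 10.5 dpc. Ltbp1, which encodes a protein that tethers latent TGF-beta to the matrix, read 268 and 256 at 10.5 dpc, 183 and 164 at 11.5, 172 and 167 at 12.5, 104 and 147 at 13.5, 108 and 100.3 at 14.5, and 123 and 104 at 16.5 dpc. All arrays to 12.5 dpc exceeded all later embryonic ones, and it fell 2.31-fold from 10.5 dpc (-1.21 log2, SE 0.18, adjusted p = 0.000393). Skil, the SnoN co-repressor of Smad target genes, read 472 and 461 at 10.5 dpc, 274 and 383 at 11.5, 263 and 249 at 12.5, 190.4 and 219 at 13.5, 189.8 and 191 at 14.5, and 185 on each array at 16.5 dpc. No 10.5 dpc array overlapped a later one, and it fell 2.52-fold (-1.34 log2, SE 0.20, adjusted p = 0.000324), while its other probe set read 0.66 log2. Sptbn1, the spectrin that acts as a Smad adaptor in liver, read 1531 and 1123 at 10.5 dpc, 688 and 722 at 11.5, 768 and 789 at 12.5, 787 and 749 at 13.5, 759 and 746 at 14.5, and 835 and 839.5 at 16.5 dpc. Only its 10.5 dpc arrays stood apart, and the difference of -0.65 log2 to 16.5 dpc was not called.

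No activin or inhibin subunit gene and no antagonist gene was called by limma between 10.5 and 16.5 dpc, and 0 of the 5 tested passed an unadjusted p under 0.05 with the same size of difference. Inhba read 55.3 to 85.3 and Inhbb 44.1 to 124 over the embryonic liver arrays. Inhbb, the activin B subunit, read 71.3 and 44.1 at 10.5 dpc and 96.6 and 124 at 16.5 dpc, a difference of 0.96 log2 (SE 0.32, adjusted p = 0.0389). Inhbe was under the floor on all but 1 of the embryonic liver arrays. It was among the tested genes only through its adult arrays, and the floor fixed its difference from 10.5 to 16.5 dpc at 0 log2. Follistatin, Fst, which binds activins, stayed between 67.5 and 142 with -0.43 log2 from 10.5 to 16.5 dpc. Of the BMP antagonists, Grem1 stayed between 122 and 175, and Nog between 31.9 and 52.8, under the filter on every liver array.

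Adult liver was set against the embryonic mean and against 16.5 dpc liver, comparisons that share the adult arrays. Against the embryonic stages, 2 of 36 genes, Inhba and Inhbe, were higher in the adult and 9 lower, where 35.5% of all genes were called (11.9% higher and 23.7% lower). The share of the pathway genes called was therefore not above that of all genes. Their median was -0.33 log2 against -0.21 over all genes. Inhbe passed the filter only through the adult arrays, so its call adds no support here or against 16.5 dpc. The split depended on scaling, with 4 higher and 6 lower after median centring and 5 higher and 7 lower after quantile normalization. Without the 10.5 and 12.5 dpc arrays 3 were higher and 6 lower. The adult replicate 1 array had a 99th percentile of intensity of 1325, against 2285 to 2935 on the other liver arrays, and without it 10 genes were called against the embryonic mean and 8 against 16.5 dpc. Against 16.5 dpc liver, 4 of 36 were higher (Inhba, Inhbe, Bmp2 and Bmp4) and 6 lower, where 33.1% of all genes were called (10.3% higher and 22.8% lower). The median there was 0.21 log2 against -0.24 over all genes, and the split was 6 higher and 3 lower after median centring and 7 higher and 4 lower after quantile normalization.

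Of the 38 genes, the activin subunit genes Inhba and Inhbe were those called higher in both adult comparisons. Inhba, which encodes the subunit of activin A, read 341 and 305 in the adult, and 55.3 at its lowest, 73.3 at its median and 85.3 at its highest over the embryonic liver arrays. The adult arrays stood apart from all of them. It was 4.48-fold higher than the embryonic mean (2.16 log2, SE 0.16, adjusted p = 3.93e-07) and 4.45-fold higher than 16.5 dpc (2.15 log2, SE 0.21, adjusted p = 5.95e-06). A second Inhba probe set read 0.10 and 0.04 log2, with embryonic intensities near or under the floor.

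Inhbe, which encodes the activin E subunit known as a hepatocyte product, read 220.0 and 133 in the adult, against a lowest of 3.11, a median of 13.4 and a highest of 27.1 in the embryonic liver. Both 16.5 dpc arrays, at 10.4 and 13.8, were under the floor. It was at least 6.89-fold higher than at 16.5 dpc (2.78 log2, SE 0.21, adjusted p = 9.37e-07), and 2.77 log2 higher than the embryonic mean (SE 0.16, adjusted p = 6.53e-08). Because arrays at the floor share a value, these SE and p are too small. Inhbe also entered the fit only through its adult arrays, the group where it is high, so these p-values add no support. Inhbb read 171 and 164.6 in the adult, above all embryonic arrays, with 0.62 log2 over 16.5 dpc, not called.

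Bmp2 read 111 on each adult array and 49.4 and 54.8 at 16.5 dpc, and rose 2.13-fold (1.09 log2, SE 0.19, adjusted p = 0.000614). The adult arrays also exceeded both 10.5 dpc arrays. Bmp4 read 63.0 and 53.4 in the adult, above the 25.4 and 21.4 of 16.5 dpc and below both 10.5 dpc arrays. It rose by 1.21 log2 from 16.5 dpc (SE 0.28, adjusted p = 0.00397), with 1 of the 16.5 dpc arrays at the floor, and was not called with the floor at the 40th percentile. Id2 and Id3 read 894 and 872, and 289.6 and 171, in the adult. Each was above its 16.5 dpc arrays, by 0.71 and 0.83 log2, without a call.

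Tgfb1 read 77.4 and 68.8 in the adult, against 68.4, 405 and 522 as the lowest, median and highest of the embryonic liver. It overlapped only the 10.5 dpc replicate 1 array. It was 4.77-fold lower than the embryonic mean (-2.25 log2, SE 0.35, adjusted p = 0.000191) and 4.76-fold lower than at 16.5 dpc (-2.25 log2, SE 0.46, adjusted p = 0.00172). Tgfb2 read 77.3 and 71.6 in the adult, below the embryonic lowest of 105, and was 2.51-fold lower than the embryonic mean (-1.33 log2, SE 0.23, adjusted p = 0.000346). Tgfb3 read 189 and 163 in the adult, above all embryonic liver arrays, with 0.57 log2 over 16.5 dpc, not called. The second Tgfb1 probe set read -0.11 and -0.50 log2 in the adult comparisons.

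**Figure D4:**
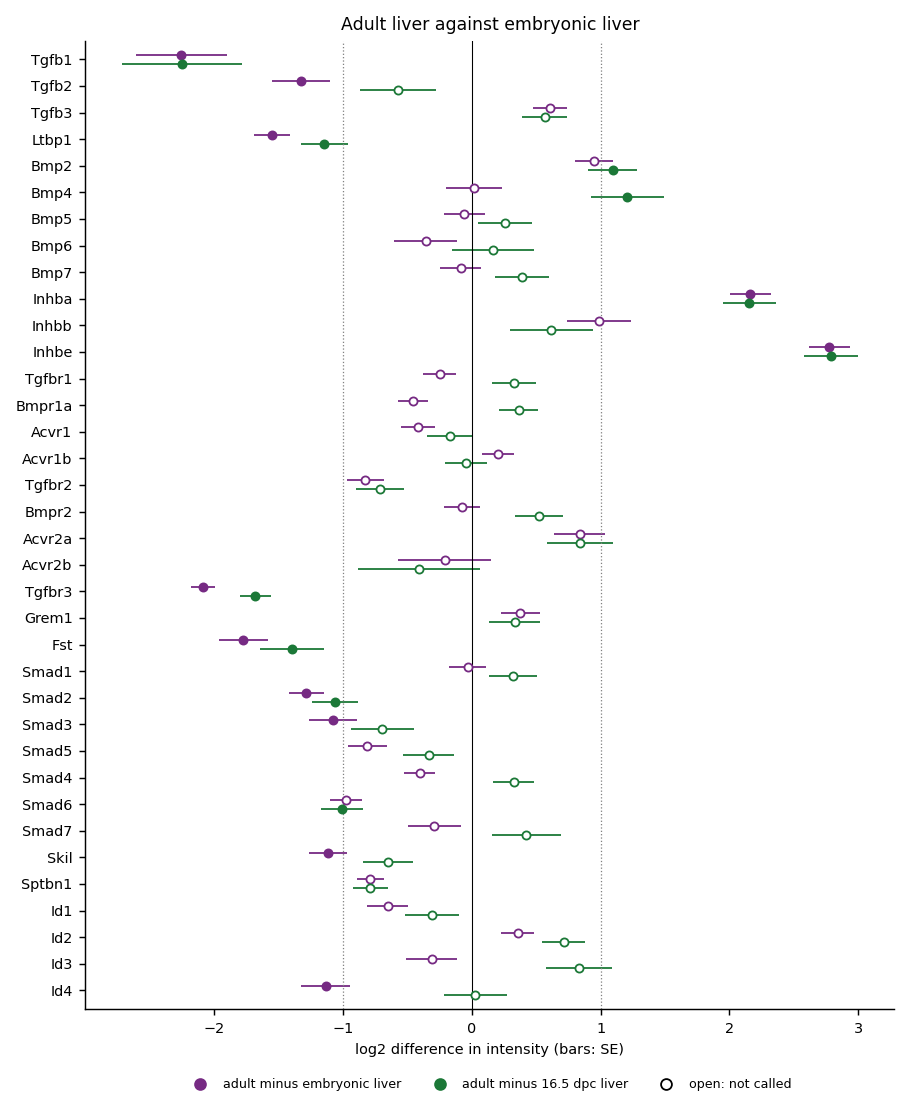
Difference in log2 for each tested pathway gene, adult minus the mean of the embryonic stages in purple and adult minus 16.5 dpc in green, with SE bars, filled points for called genes and dotted lines at 1 log2 either way. Inhba and Inhbe lie to the right in both comparisons (2.15 to 2.78), and Tgfb1 and Tgfbr3 lie furthest to the left (-2.25 and -2.08 against the embryonic mean).

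Tgfbr3 was among the genes that were lower in the adult. It read 103 and 101 there and 326, 428 and 577 as the lowest, median and highest in the embryonic liver, with a wide gap between the groups. It was 4.24-fold lower than the embryonic mean (-2.08 log2, SE 0.09, adjusted p = 8.19e-09) and 3.20-fold lower than at 16.5 dpc (-1.68 log2, SE 0.12, adjusted p = 6.21e-07), while its other probe set read 0.70 and 0.59 log2. Ltbp1 read 47.3 and 55.4 in the adult against 100.3, 155 and 268 in the embryonic liver, and was 2.92-fold lower than the embryonic mean (-1.55 log2, SE 0.14, adjusted p = 2.19e-06) and 2.21-fold lower than at 16.5 dpc (-1.14 log2, SE 0.18, adjusted p = 0.000283). No adult array reached the embryonic range. The Ltbp1 call against 16.5 dpc was lost under 2 of 26 alternatives, among them median centring. That against the embryonic mean was lost with the mean of all probe sets.

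Fst read 24.6 and 27.5 in the adult against 67.5, 85.6 and 142 in the embryonic liver, with 1 adult array at the floor. It differed by -1.77 log2 from the embryonic mean (SE 0.19, adjusted p = 9.03e-06) and by -1.39 log2 from 16.5 dpc (SE 0.25, adjusted p = 0.000629), and neither call held with the floor at the 40th percentile. Smad2 read 100.0 and 72.9 in the adult against 168, 202 and 272, and was 2.44-fold lower than the embryonic mean (-1.29 log2, SE 0.14, adjusted p = 8.24e-06) and 2.09-fold lower than at 16.5 dpc (-1.06 log2, SE 0.18, adjusted p = 0.000414). Neither gene overlapped between adult and embryo. The Smad2 call against 16.5 dpc was lost under 6 of 26 alternatives, namely median centring, quantile normalization, both other choices of probe sets, and without the adult replicate 2 or the 16.5 dpc replicate 1 array. Smad6 read 103 and 142 in the adult and was 2.01-fold lower than at 16.5 dpc (-1.01 log2, SE 0.16, adjusted p = 0.000293), just past the size needed. This call was lost under 4 of 26 alternatives, namely median centring, quantile normalization, and without the adult or the 16.5 dpc replicate 1 array.

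Smad3, Skil and Id4 were called lower against the embryonic mean and, like Tgfb2, not against 16.5 dpc. Smad3 read 80.8 and 134 against 150.1, 200 and 455, a 2.11-fold difference (-1.08 log2, SE 0.19, adjusted p = 0.000381), and its 3 probe sets disagreed, with 0.98 and 0.45 log2 in the other 2. Skil read 142 and 97.6 against 185, 234 and 472, and was 2.17-fold lower (-1.12 log2, SE 0.15, adjusted p = 5.35e-05). Both genes lay below all embryonic arrays in the adult. Both calls were lost with median centring, quantile normalization and the mean of all probe sets, and without the 10.5 and 12.5 dpc arrays. Leaving out adult replicate 1 for Smad3 and adult replicate 2 for Skil ended them as well. Id4 read 25.8 and 21.3 against 19.9, 55.0 and 133, and differed by -1.13 log2 (SE 0.19, adjusted p = 0.000277). This call was lost with median centring, with the floor at the 40th percentile and with the mean of all probe sets. Its adult arrays lay above both 16.5 dpc arrays and below all other embryonic ones, with 1 adult and both 16.5 dpc arrays under the floor. The stellate and mesenchymal marker sum was 3108 to 3591 in the adult, under all embryonic liver arrays, and the endothelial sum 2288 to 2322, above them. Their part in these differences was not tested.

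Among the remaining genes the adult arrays read 249 and 254 for Tgfbr1, 155 and 121 for Tgfbr2, 161 and 123 for Smad1, 305 and 323 for Smad4, 123 and 96.9 for Smad5, and 76.2 and 65.3 for Smad7. All of these were within 1 log2 of the 16.5 dpc arrays by the fit and were not called. Adult values for Bmpr1a were 149.5 and 133, for Bmpr2 299.6 and 257, for Acvr1 109.9 and 99.5, for Acvr2a 332 and 295, for Acvr2b 850.2 and 734, and for Sptbn1 508 and 463. The receptor genes Bmpr1a, Bmpr2 and Acvr2a read above their 16.5 dpc arrays, and Sptbn1 below, at -0.79 log2. Acvr2a was 0.84 log2 above 16.5 dpc, and was called there after median centring and after quantile normalization. Adult values were 186 and 159 for Id1, 94.8 and 96.4 for Bmp5, 64.4 and 95.1 for Bmp7, 60.3 and 75.3 for Bmp6, 314 and 339 for Acvr1b, 26.9 and 38.3 for Bmpr1b, 180.0 and 198 for Grem1, and 38.5 and 40.2 for Nog.

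Liver was compared with the rest of the embryo at the 4 stages that hold both, with 8 and 4 arrays and stage in the fit. The 2 sets of arrays were deposited in different forms. The liver arrays hold 1216 to 1535 values below 0 and no exact 0, and those from the rest of the embryo hold 35 to 41 exact zeros and none below 0, with median intensities of 91.9 to 107. Tissue and form of values therefore cannot be told apart. The median over all 14895 genes tested was -1.04 log2 in liver, and 65.1% of all genes were called (14% higher and 51.2% lower). Of 36 pathway genes tested, 26 were lower in liver and 3 higher, with a median of -1.87 log2. After median centring 22 were lower and 5 higher, with a median of -1.22 against -0.39 over all genes. After quantile normalization 15 were lower and 4 higher, with -0.91 against -0.15 and 39.4% of all genes called.

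Id4, which in the embryo is known for its expression in neural tissue, had the widest gap. It read 1967, 2292, 2480.2 and 1461 in the rest of the embryo, in order of stage, and between 31.7 and 133 on the 8 liver arrays. The groups lay far apart, 29.6-fold (-4.89 log2, SE 0.23, limma adjusted p = 1.51e-08). Id3 read 1960.0, 2255, 2106 and 1332 there against 129 to 921 in liver, and was 5.07-fold lower in liver (-2.34 log2, SE 0.26, adjusted p = 6.6e-06). Id1 read 1179, 1168, 1371 and 889.8 against 211 to 527 in liver, without overlap, at -1.93 log2. Id2 read 2122, 1479.7, 1862 and 1228 against 549 to 1464, an overlap, at -1.07 log2, and at 0.17 log2 (adjusted p = 0.357) after quantile normalization. The Id2 call was also lost without the 12.5 dpc array of the rest. The summed neural markers were 26551 to 33424 in the rest of the embryo and 2810 to 2824 in liver at 10.5 dpc, and the stellate and mesenchymal markers 40053 to 73743 in the rest. Their part in the Id and receptor differences was not tested.

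Of the receptor genes, 7 were lower in liver, Acvr1b and Tgfbr3 were not called, and Acvr2b was higher by its brightest probe set. Tgfbr1 read 3263, 2934, 2981 and 1996 in the rest of the embryo and 185 to 697 in liver (-2.96 log2, SE 0.17, adjusted p = 4.4e-08), while its other 2 probe sets read 0.77 and 0.68 log2. Bmpr2 read 2136, 2750.1, 2746 and 2662 against 215 to 625 (-2.91 log2, SE 0.21, adjusted p = 2.58e-07), and Bmpr1a 1613, 1633, 1670.2 and 1513 against 137 to 455 (-2.79 log2, SE 0.20, adjusted p = 2.71e-07). None of these 3 overlapped between tissues. Tgfbr2 read 551, 758, 1088 and 1943 against 179 to 292, at -2.00 log2, while its other 2 probe sets read 2.22 and -0.64 log2. Acvr2a read 703, 689, 718 and 851 against 124 to 301, at -2.01 log2, and Acvr1 473, 456, 588 and 669 against 113 to 216, at -1.87 log2. Bmpr1b, tested here, read 315, 155, 249 and 222 against 39.0 to 68.2, at -2.08 log2. In each of these 4 the lowest array of the rest lay above the highest of liver. Acvr1b read 258, 393, 277 and 263, within the liver range of 226 to 343 but for 1 array, at -0.09 log2. Its other probe set read -1.75 log2.

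Acvr2b, an activin type II receptor, was higher in liver by its brightest probe set, which read 46.4, 43.6, 52.2 and 52.9 in the rest of the embryo and 523 to 2349 in liver (4.19 log2, SE 0.31, adjusted p = 2.74e-07). Its other 2 probe sets were lower in liver, at -1.93 and -1.14 log2, and the mean of the 3 read 0.37 log2. The probe sets of this gene give no common direction. Tgfbr3 read 388, 507, 616 and 1215 against 344 to 577, an overlap, at -0.42 log2.

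By their brightest probe sets, all Smad genes except Smad6 were lower in liver. Smad1 read 1049.9, 1012, 1244 and 1298 in the rest of the embryo and 111 to 244 in liver (-2.87 log2, SE 0.17, adjusted p = 6.21e-08). Smad5 read 1210.4, 1493, 1306 and 952 against 146 to 409.5, at -2.51 log2, and Smad3 1169, 1287, 1187 and 852 against 164 to 455, at -2.17 log2. Smad4 read 2201, 2056, 2138 and 2123 against 332 to 935, at -2.07 log2, Smad2 464, 794, 733 and 626 against 172 to 272, at -1.57 log2, and Smad7 481, 316, 425 and 387 against 54.1 to 209, at -1.87 log2. None of these Smads overlapped between tissues. Smad6 read 269, 336, 336 and 294 against 194 to 280.2, at -0.36 log2, not called. The other 2 Smad3 probe sets went the other way, at 0.63 and 1.34 log2. The other Smad5 probe sets read 0.32 and -1.18 log2, and those of Smad4 -0.09 and -2.38 log2.

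Of the ligands, Bmp4 read 582, 865, 444 and 419 in the rest of the embryo and 44.8 to 203 in liver (-2.85 log2, SE 0.26, adjusted p = 1.61e-06). Bmp7 read 318, 322, 387 and 305 against 74.0 to 144, at -1.81 log2, Bmp2 129, 139, 299.6 and 308 against 43.1 to 94.1, at -1.69 log2, and Bmp5 290.3, 196, 317 and 551 against 68.5 to 161, at -1.57 log2. The rest of the embryo was above liver on every array for these 4 BMP genes. Tgfb3 read 141, 243, 323 and 723 against 92.9 to 135.4, at -1.38 log2. Tgfb2 read 259, 578, 287 and 316 against 122 to 417, at -0.58 log2, and Bmp6 62.4, 37.96, 90.2 and 123 against 77.4 to 111, at 0.37 log2, neither of them called. The other 3 Tgfb2 probe sets were further down in liver, at -2.19, -2.48 and -2.15 log2. Tgfb1 was higher in liver, at 123, 97.9, 89.5 and 252 in the rest against 68.4 to 516 (1.34 log2, SE 0.40, adjusted p = 0.00962), and the 2 ranges overlapped. Its second probe set read -1.23 log2, and the call was lost without the 11.5 or the 12.5 dpc array of the rest. The Tgfb3 call was lost without the 14.5 dpc array of the rest. Inhba read 4.80, 51.0, 11.5 and 44.2 against 55.3 to 85.3, with 2 arrays of the rest at the floor (1.10 log2, SE 0.20, adjusted p = 0.000443), and Inhbb 117, 152, 120.2 and 187 against 44.1 to 109, at -0.78 log2, not called. The Inhba call was lost without the 10.5 or the 12.5 dpc array of the rest.

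Among regulators, Skil read 2452, 2589, 2424 and 1709 in the rest of the embryo and 189.8 to 472 in liver (-2.95 log2, SE 0.14, adjusted p = 1.61e-08), against -0.28 log2 in its other probe set. Fst read 423, 296, 663 and 984 against 70.5 to 142, at -2.51 log2, Sptbn1 3160.3, 3957, 3745 and 4964 against 688 to 1531, at -2.19 log2, and Ltbp1 378, 469, 681 and 805 against 100.3 to 268, at -1.73 log2. On these probe sets no array of the rest reached down to the liver range. Of the other 5 Sptbn1 probe sets, 2 went the opposite way, at 5.21 and 2.06 log2. Grem1 read 72.5, 94.8, 87.0 and 73.4 against 122 to 169, higher in liver without overlap by 0.83 log2, under the size needed for a call. Nog read 72.0, 75.6, 86.7 and 49.1 against 31.9 to 52.8, and Inhbe 10.3, 6.81, 6.81 and 10.6 against 3.11 to 27.1, and neither was tested.

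**Figure D5:**
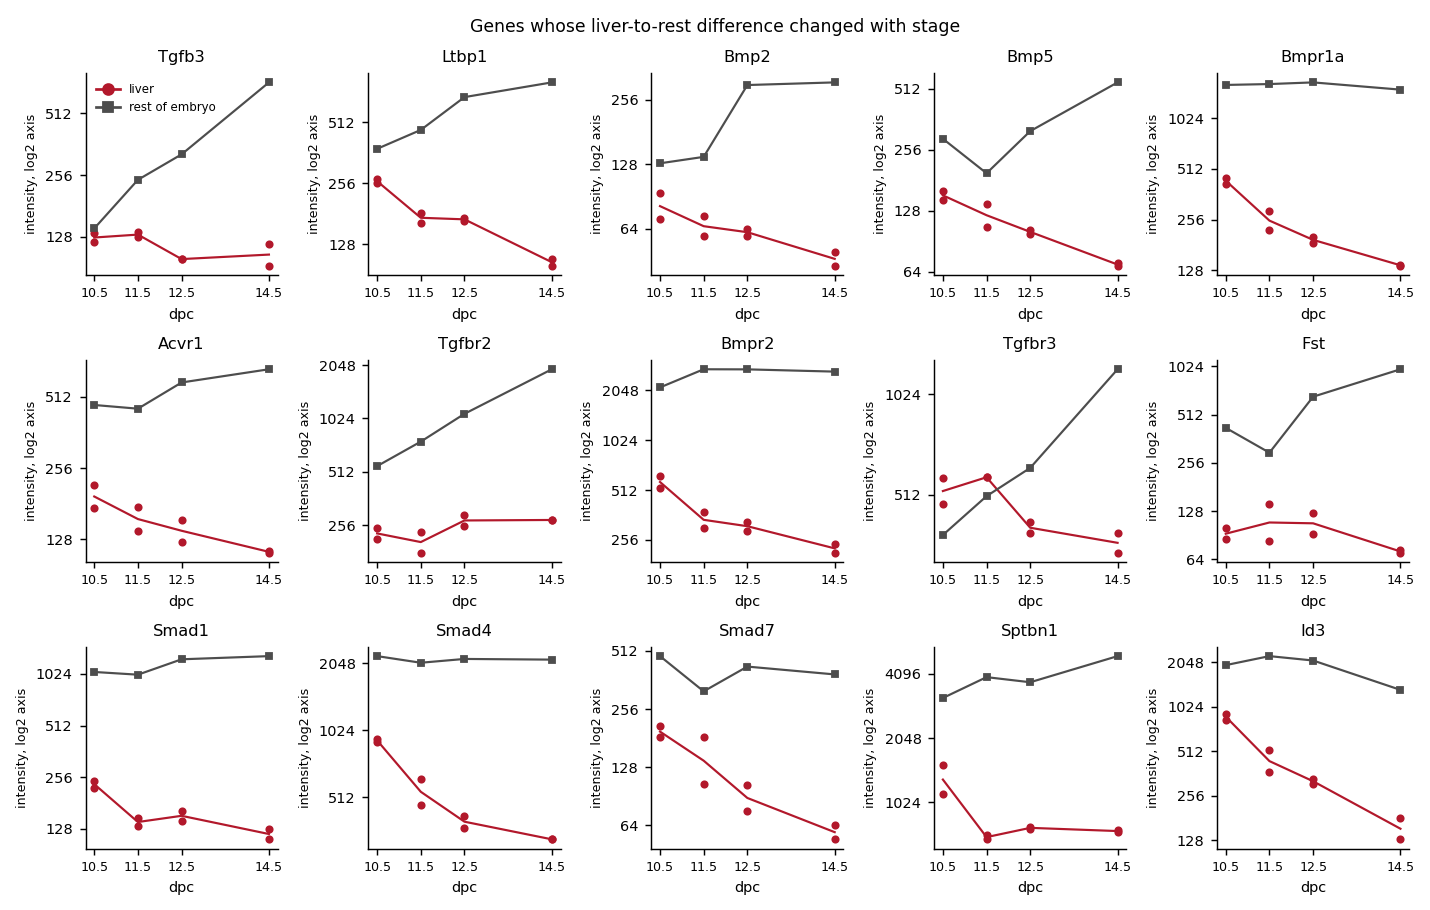
Intensity (log2 axis) by stage of the 15 genes whose difference between tissues changed with stage, where circles are liver arrays and squares are single arrays of embryo without liver. Liver minus rest goes down with stage in the fit of each panel, as for Tgfb3, where liver stays at 92.9 to 135.4 and the rest goes from 141 to 723.

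The difference between liver and the rest of the embryo changed with stage for 15 of 36 genes, all toward lower values in liver by at least 0.25 log2 a day, where 16.1% of all genes were called (10.1% lower and 6% higher). No gene was called in the other direction. At an unadjusted p under 0.05 in limma with the same size, 17 were lower and 0 higher. The median was -0.26 log2 a day against -0.03 over all genes. With 1 array a stage in the rest of the embryo these slopes lean on single arrays. The count was 4 without the 14.5 dpc array of the rest (Bmpr1a, Ltbp1, Smad4 and Tgfb3), 6 without its 10.5 dpc array, 8 without the 14.5 dpc replicate 2 liver array, and 5 without the 10.5 and 12.5 dpc arrays (Bmp5, Ltbp1, Tgfb1, Tgfb3 and Tgfbr3), where 8.21% of all genes were called. The calls of Smad7, Fst and Sptbn1 were lost under 17, 15 and 15 of 23 alternatives.

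The 15 genes reached this in different ways. Tgfb3, Tgfbr3, Tgfbr2, Bmp2, Bmp5 and Fst had upward slopes in the rest of the embryo, of 0.57, 0.41, 0.46, 0.35, 0.29 and 0.38 log2 a day, against -0.08, -0.15, 0.09, -0.19, -0.28 and -0.11 in liver. Smad4, Bmpr1a and Id3 had downward slopes in liver, of -0.35, -0.39 and -0.60 log2 a day, with -0.01, -0.02 and -0.16 in the rest. Ltbp1 went down in liver and up in the rest, with slopes of -0.31 and 0.28. Slopes of opposite sign were also those of Tgfb3, Tgfbr3, Bmp2, Bmp5 and Fst above. The same held for Bmpr2 (-0.30 in liver and 0.06 in the rest), Smad1 (-0.20 and 0.09), Acvr1 (-0.19 and 0.14) and Sptbn1 (-0.15 and 0.15). These single-tissue slopes are descriptions without a test of their own.

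A list of 67 further genes of these pathways, of which 58 were on the array, gives the setting. From 10.5 to 16.5 dpc 8 of 47 tested fell (17.02%) and 3 rose (6.38%), against 6.98% lower and 10.4% higher of all genes, with a median of -0.03 log2. The largest falls were in Bambi, a pseudoreceptor that dampens TGF-beta signals, and Fstl1, a secreted follistatin-like protein. Bambi read 650 and 570 at 10.5 dpc, and 72.0 and 88.2 at 16.5 dpc (-2.93 log2, SE 0.22). Fstl1 read 1817 and 1552 at 10.5 dpc, and 238 and 228 at 16.5 dpc (-2.85 log2, SE 0.19). The arrays of the 2 stages lay far apart for both. Tgif1, a homeodomain co-repressor, fell by 1.93 log2 and Tgfbi, a TGF-beta-induced matrix protein, by 1.85 log2. The genes that rose were Amhr2, the receptor of anti-Müllerian hormone, at 1.76 log2, Hjv, the hemojuvelin co-receptor of BMP6, at 1.47 log2, and the endothelial co-receptor Eng at 1.37 log2.

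From 11.5 to 16.5 dpc without the 10.5 and 12.5 dpc arrays, 5 of 43 of these further genes fell (11.6%) and 2 rose (4.65%), against 2.24% lower and 6.64% higher of all genes, with a median of 0.04 log2. Hjv rose by 1.80 log2, with 1 of its 11.5 dpc arrays under the floor, and Amhr2 by 1.66 log2, and the largest falls were those of Fstl1 at -1.65 and the co-repressor Tgif2 at -1.45 log2. In the first step, 4 of 47 were lower at 11.5 than at 10.5 dpc (8.51%, against 2.69% of all genes), Bambi (-1.66), the homeobox gene Msx2 (-1.46), the matricellular gene Ccn2 (-1.40) and Fstl1 (-1.21).

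In the adult, 6 of 47 further genes were higher than the embryonic mean (12.8%) and 8 lower (17.02%), against 11.9% higher and 23.7% lower of all genes, with a median of 0.02 log2. Hamp, which encodes the iron hormone hepcidin and is a target of BMP6 signals in hepatocytes, read 2268 and 4240 in the adult and 54.8 to 115 on the embryonic liver arrays. It was higher by 5.50 log2 (SE 0.21) than the embryonic mean and by 5.02 log2 than at 16.5 dpc. Hjv read 415 and 334 in the adult and was 2.82 log2 above the embryonic mean. The groups did not overlap for either gene. Fstl1 read 5.02 and 28.4 in the adult, with 1 array under the floor, so its difference of -4.69 log2 is compressed. Thbs1, an activator of latent TGF-beta, read 26.6 and 34.1, just above the floor, and differed by -3.39 log2. Against 16.5 dpc, 6 were higher (12.8%) and 7 lower (14.9%), against 10.3% and 22.8% of all genes, and the falls were led by Fstl1 (-3.13, compressed by the same array), Thbs1 (-2.99) and the ligand Gdf3 (-2.65 log2, adjusted p = 0.0356), whose adult arrays read -8.17, under the floor, and 189.8.

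In liver against the rest of the embryo, 26 of 48 further genes were lower (54.2%) and 6 higher (12.5%), close to the 51.2% and 14% of all genes, with a median of -1.28 log2. The 4 genes furthest apart by the fit were Ltbp2 (-3.87), Sostdc1 (-3.72), Ccn2 (-3.35) and Bmper (-3.23). Ltbp2 lay under the floor on 7 of the 8 liver arrays and Bmper on 3 of 8, so their differences are compressed and their order among these genes is not settled. The difference between tissues changed with stage in 14 of 48, 13 of them downward (27.1%, against 10.1% of all genes), such as Bmper (-0.61), Bambi (-0.59) and Ltbp3 (-0.58 log2 a day), and Amhr2 was the 1 that went up (0.52 log2 a day).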

How the data were processed

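Total RNA was extracted with Trizol and labelled as biotinylated cRNA, per the labels' protocols. The authors deposited linear probe set intensities in 1 table of 18 arrays, and their summary and scaling methods are not given in the sources. Groups come from the source names, because other label fields repeat or contradict the stage. Adult samples carry a treatment text on liver resection but a title and source of normal liver at baseline, and were used as normal liver. Of the 45101 probe sets, 34945 had a single symbol and gave 18193 genes, 932 had several symbols, 9160 had none and 64 were controls.

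Intensities were raised to a floor of 24.8 and taken to log2. Genes entered a fit if at least 2 of its arrays exceeded 78.0, the median of the whole table. Tests were two-sided and used limma 3.58.1 under R 4.3.3 (lmFit, then eBayes with trend), with 1 mean a group over the liver arrays, or with stage, tissue and tissue by day over the 12 arrays of the tissue comparison. P-values were adjusted by Benjamini-Hochberg over all genes of a fit, and calls needed an adjusted p under 0.05 and 1 log2, or 0.25 log2 a day. Where arrays lie at the floor, differences are compressed and SE and p too small. The number of arrays limits the precision.

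Every pathway gene is described, with array values for those called in at least 1 comparison. From the further pathway genes the 4 called genes of each comparison that differed most, or fewer, are named, besides all that rose from 10.5 dpc. The members, gene lists and marker lists were chosen with earlier results of these data known. Alternatives were the floor, the filter, the scaling, the choice of probe sets, single arrays left out, a replicate block and fits on other sets of arrays. The fits were tested on simulated data.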

Additional observations from a re-analysis of the deposited data

Results flagged for a closer look

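The difference between liver and the rest of the embryo changed with stage, by a test of the interaction of tissue and day in limma, for 15 of the 36 pathway genes tested, and each value is in log2 a day for liver minus rest. Among ligands the changes were -0.66 for Tgfb3 (adjusted p = 0.00106), -0.57 for Bmp5 (adjusted p = 0.00436) and -0.54 for Bmp2 (adjusted p = 0.0069). Among receptors they were -0.56 for Tgfbr3 (adjusted p = 0.000748), -0.37 for Tgfbr2 (adjusted p = 0.00673), -0.37 for Bmpr1a (adjusted p = 0.00884), -0.36 for Bmpr2 (adjusted p = 0.0186) and -0.33 for Acvr1 (adjusted p = 0.0174). Among Smads they were -0.29 for Smad1 (adjusted p = 0.0174), -0.34 for Smad4 (adjusted p = 0.00952) and -0.40 for Smad7 (adjusted p = 0.0481). Id3 changed by -0.45 (adjusted p = 0.0165), Fst by -0.48 (adjusted p = 0.0427), Ltbp1 by -0.59 (adjusted p = 0.00102) and Sptbn1 by -0.30 (adjusted p = 0.0476). Only Tgfb3 and Ltbp1 of these were called with every array left out in turn and without the 10.5 and 12.5 dpc arrays.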

How the results depend on the processing

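Outside the settings that leave out 1 array, 80 of the 88 counts of called members stayed within a fixed ratio of the main count. Such a count does not track which genes were called. Of 1361 other results, 1227 stayed the same, by that ratio for other counts, by sign for medians and by call for single genes. Averaging all probe sets of a gene cut the calls from 17 to 8 for 16.5 against 10.5 dpc (Bmp4, Id2, Id3, Id4, Smad1, Smad4, Smad7 and Tgfb2), from 5 to 1 against 11.5 dpc (Id3), and from 11 to 4 for adult against embryonic liver (Inhba, Inhbe, Fst and Tgfb1), where Smad3 turned to 0.11 log2 (adjusted p = 0.365). Leaving out probe sets of types _x_at, _s_at and _a_at gave 3 calls against 11.5 dpc. A filter at the 70th percentile gave 1 call for 11.5 against 10.5 dpc and 6 for adult against 16.5 dpc, whose median turned to -0.24 log2 (-0.40 over all genes). Quantile normalization gave 19 calls between tissues, with Id2 at 0.17 log2, and the change with stage had 5 calls without the 10.5 and 12.5 dpc arrays. Apart from the filter, which tests fewer genes, and the arrays left out, the cause was not tested. With single arrays left out, the calls ranged over 14 to 18 for 16.5 against 10.5 dpc, 3 to 8 against 11.5 dpc (3 without 11.5 dpc replicate 2 and 8 without 11.5 dpc replicate 1), 0 to 4 for 11.5 against 10.5 dpc (0 without 10.5 or 11.5 dpc replicate 1), 10 to 12 and 8 to 11 for the adult against the embryonic mean and 16.5 dpc, 26 to 29 between tissues and 4 to 16 for its change with stage. Replicate numbers did not pair the arrays, since the correlations of same-numbered arrays over 21 pairs of groups ran from -0.35 to 0.25, and with a replicate block the calls were 16, 5, 3, 11, 10, 29 and 12 in the order of these 7 comparisons. The fit of all 14 liver arrays for 16.5 against 11.5 dpc was chosen after seeing the data. So was the change with stage without the 10.5 and 12.5 dpc arrays. Signal over background limits Bmp4, Id4, Inhbe, Bmpr1b and Nog, which lie near or under the floor or the filter.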
